A study of Homo sapiens with 6 samples.

Results

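The ADAM, ADAMTS, MMP and TIMP genes of LN229 cells were followed in 3 WT and 3 PARP3-/- libraries of RNA sequencing. Members were the genes annotated as protein-coding whose name starts with ADAM and a digit, with ADAMTS, with MMP and a digit, or with TIMP and a digit. The rule found 65 members among the 33841 genes listed with counts, of which 16508 were protein-coding. They were 17 ADAM, 18 ADAMTS, 5 ADAMTS-like (ADAMTSL), 20 MMP and 4 TIMP genes, and MMP24OS, a transcript on the strand opposite to MMP24 that carries the name but is not a metalloproteinase. LN229 is an established human glioblastoma cell line. The WT libraries came from the parental cells, labelled PARP3+/+, and the PARP3-/- libraries from LN229 cells carrying a CRISPR/Cas9 disruption of PARP3. Both were proliferating cultures in the same serum-containing medium, with 3 biological replicates each. The study grew each knockout LN229 line from a single sorted cell, and the sources used here do not state which clone was sequenced, so genotype and clone cannot be told apart.

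Metalloproteinases are zinc-dependent proteases that act outside the cell or at its surface. ADAM proteins sit in the plasma membrane, where the active ones shed the outer part of other membrane proteins, while ADAMTS proteases are secreted and cut proteoglycans, procollagens and other matrix proteins. MMPs degrade collagens, laminins and other matrix components, either after secretion or, for the membrane-type members, while anchored to the cell. TIMPs are secreted inhibitors of these enzymes, and TIMP3 differs from the others in binding tightly to the matrix and in its wide action on ADAM and ADAMTS proteases. In glioblastoma the balance of these genes is studied for its part in invasion through brain matrix, which is rich in hyaluronan and in proteoglycans such as versican and brevican.

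The libraries held 29692065 to 46010369 counted reads, and the members took 0.357 to 0.444% of the reads in WT and 0.477 to 0.558% in PARP3-/-. TIMP3 carried most of this rise. The mean summed level of all members went from 3949 CPM in WT to 5144 CPM in PARP3-/-, and TIMP3 alone from 1311 to 2207 CPM. The ADAM sum was also higher, at 928 to 997 CPM in WT and 1078 to 1128 CPM in PARP3-/- libraries. The ADAMTS and MMP sums overlapped between the genotypes. Reads of the targeted gene PARP3 numbered 1273, 942 and 995 in the WT libraries and 574, 1004 and 736 in the PARP3-/- libraries. These counts overlapped (edgeR adjusted p 0.307, or 0.0469 with the replicate number as a block), so within these libraries the genotypes rest on the labels. The study checked its knockout LN229 clones for loss of PARP3 by sequencing and by western blot. VIM, NES, CD44, EGFR, SOX2, S100B and OLIG2, markers of glioma cells, were counted in all 6 libraries, while GFAP had 1 to 17 reads. Of the 7 of these markers that were tested, S100B fell (log2 fold change -1.06, edgeR adjusted p 0.0256, with 0.119 without WT replicate 3, 0.112 without PARP3-/- replicate 2 and 0.108 without PARP3-/- replicate 3), and with the block 4 fell, CD44, SOX2, S100B and OLIG2. Across all tested genes the shares called lower were 3.33% without the block and 12.5% with it. The list of markers of other cell types is not reported in full, so these libraries are not described as free of them, and the part of either list in the results was not tested. Among those reported, PTPRC (immune), PECAM1 and CDH5 (endothelial), EPCAM (epithelial) and RBFOX3 (neuronal) had at most 4 reads in a library. SNAP25, the other neuronal marker listed, had 298 to 489 reads. The immune marker CD68 had 8 to 16 and the oligodendrocyte marker MOG 2 to 9. In bulk RNA, fewer cells of a type and less RNA per cell cannot be told apart.

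The members differed widely in level. Compared as CPM per kb of the MANE Select transcript, the reference transcript of each gene, the inhibitors led. TIMP3 stood at 285 ± 29.2 (SD, n = 3) CPM per kb in WT and TIMP1 at 252 ± 33.8, followed by MMP2, a secreted gelatinase, at 102 ± 20.7 and ADAM9, a sheddase, at 82.4 ± 15.8. TIMP2 had 64.4 ± 10.7, ADAM15 51.0 ± 3.39 and MMP14 39.0 ± 2.62 CPM per kb in WT. The mean ± SD overlapped between TIMP3 and TIMP1, MMP2 and ADAM9, ADAM9 and TIMP2, and TIMP2 and ADAM15, but not between ADAM15 and MMP14. This overlap takes no account of the genes being measured in the same libraries. Within each WT library TIMP3 was above TIMP1, at a ratio of 1.09, 1.16 and 1.15 in replicates 1, 2 and 3. ADAM17, MMP16, ADAMTS1, ADAM10 and MMP17 followed with 18.7 to 28.5 CPM per kb in WT. In PARP3-/- cells TIMP3 stood at 480 ± 32.0 CPM per kb, against 231 ± 12.5 for TIMP1. The order depends on transcript length: ADAM10 has 23.0 CPM per kb over all 6 libraries with the MANE Select length, and 381 with the median transcript length given in the deposited table.

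Many members named for matrix breakdown were close to silent. Of the 65 members, 10 had at most 3 reads in every library, among them MMP9, MMP10, MMP12, MMP28, ADAMTS2, ADAMTS8 and TIMP4. A count of 3 is a level of 0.0652 to 0.101 CPM by total counts, without TMM scaling. The gelatinase MMP9 was counted 1, 0 and 2 times in WT and 0, 2 and 2 times in PARP3-/- cells. MMP1, the interstitial collagenase, had 3, 6 and 8 reads in WT and 1, 2 and 3 in PARP3-/- cells, MMP3 had 1 to 5 reads and MMP7 2 to 7. MMP13 was listed at 0 in the 3 WT libraries and had 1, 4 and 1 reads in PARP3-/- cells. They are among the 25 members that did not pass the filter on low counts and were left out of the main test. At this depth only a large difference could be seen in them.

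**Figure D1:**
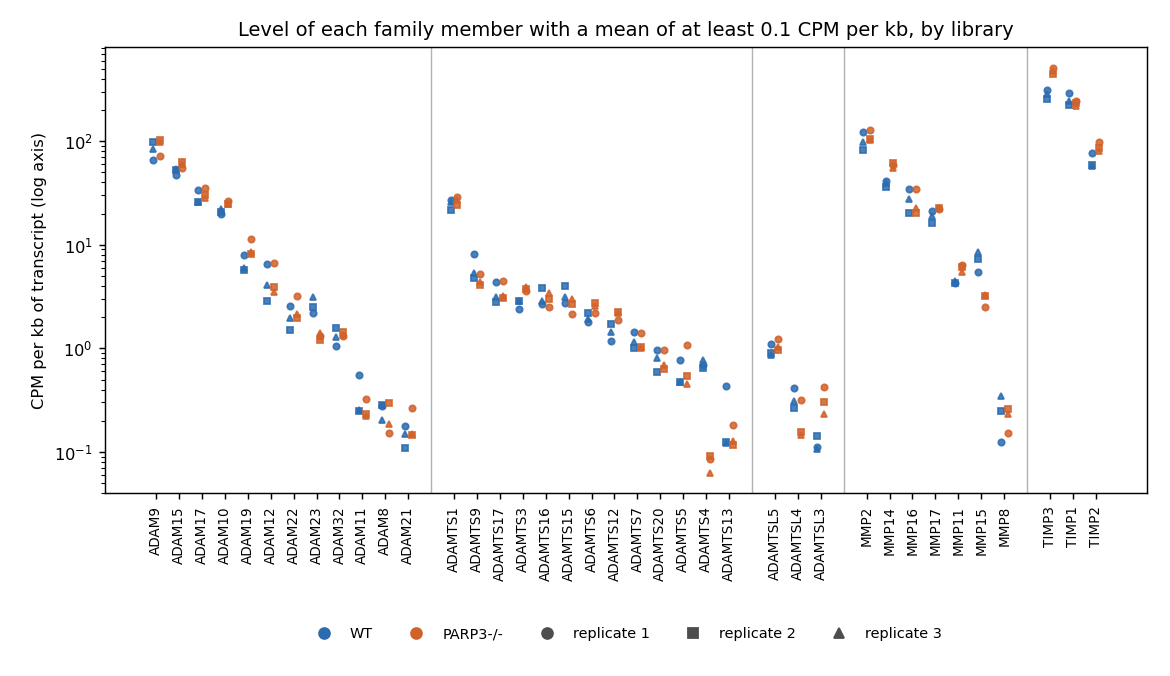
Level of each ADAM, ADAMTS, ADAMTSL, MMP and TIMP member with a mean of at least 0.1 CPM per kb, on a log axis in CPM per kb of transcript. Blue points are WT and orange points PARP3-/- libraries, the shape gives the replicate number, grey lines part the classes, and MMP24OS is left out. TIMP3 is the highest member, and ADAMTS4 shows the widest gap between the genotypes.

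Of the 40 tested members, 3 fell and 4 rose in PARP3-/- cells at an adjusted p under 0.05 in edgeR's quasi-likelihood test over all 17144 tested genes. ADAMTS4, MMP15 and ADAM23 were lower, and ADAMTSL3, TIMP3, MMP14 and ADAMTS3 were higher. These counts are 7.5% and 10.0% of the tested members, where 3.33% of all tested genes were called lower and 1.36% higher. The libraries numbered 1 deviated together, while replicates 2 and 3 were less clearly paired by number. Deviations correlated at 0.383 in pair 3, against 0.575 for WT replicate 2 with PARP3-/- replicate 3. With the replicate number as a block in the same test 6 members fell and 13 rose, against a background of 12.5% and 11.8% of all tested genes. The 6 that fell with the block were ADAM23, ADAMTS15, ADAMTS4, ADAMTS9, ADAMTSL4 and MMP15. The 13 that rose with the block were ADAM10, ADAM15, ADAM19, ADAM22, ADAMTS12, ADAMTS3, ADAMTS6, ADAMTSL3, MMP11, MMP14, MMP17, TIMP2 and TIMP3. DESeq2 called 4 members lower and 8 higher of the 50 it gave an adjusted p, with a background of 3.84% and 2.09%. DESeq2 with the block called 5 lower and 12 higher of 45, with a background of 6.48% and 5.98%. At a stricter edgeR threshold, an adjusted p below 0.001 together with a log2 fold change above 1 in size, ADAMTS4 alone was called, where 0.443% and 0.035% of all tested genes passed as lower and higher. Among tested members the PARP3-/- libraries lay wholly above the WT libraries in 11 and wholly below in 4, against 10.8% and 12.0% of all tested genes. The median log2 fold change of the tested members was 0.08, beside -0.01 over all tested genes, and the median size of the change was 0.28 beside 0.15.

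**Figure D2:**
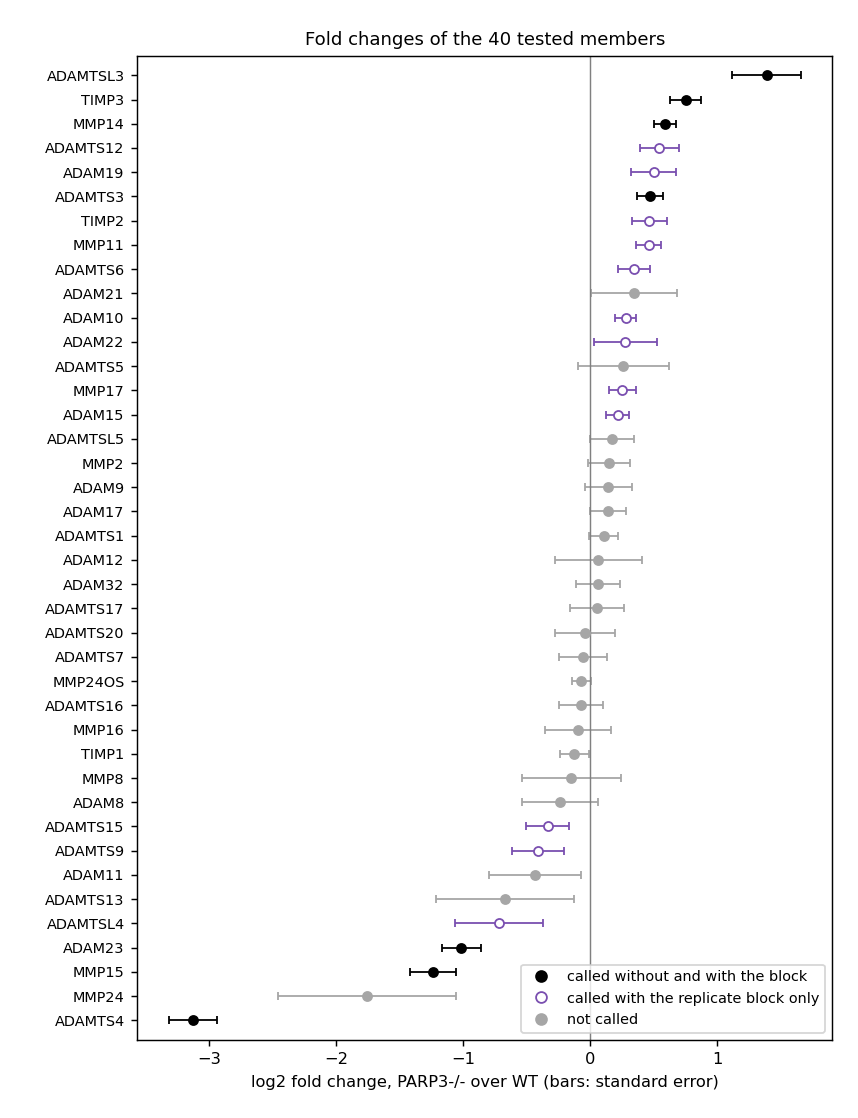
Log2 fold change, PARP3-/- over WT, of the 40 tested members, with the standard error as bars. Black points are the 7 members called without and with the replicate block, open purple points the 12 called with the block only, and grey points those called in neither. ADAMTS4 lies furthest left at -3.13 and ADAMTSL3 furthest right at 1.39.

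ADAMTS4 (ENSG00000158859, hg38 chr1:161184308-161199056, minus strand), or aggrecanase-1, cleaves aggrecan, versican and brevican. It had 249, 263 and 307 reads in WT and 25, 40 and 23 in PARP3-/- libraries, in the order of replicates 1, 2 and 3 used throughout. The groups were far from overlapping, with 6.82, 6.27 and 7.49 CPM in WT and 0.830, 0.898 and 0.609 CPM in PARP3-/- cells. The mean fell 8.81-fold, from 6.86 ± 0.610 to 0.779 ± 0.151 CPM (SD, n = 3), with a log2 fold change of -3.13, a standard error of 0.19 and an edgeR adjusted p of 0.000348. ADAMTS4 was the only member called with each of the 6 libraries left out in turn, and the highest adjusted p in those edgeR fits was 0.00404. The study picked ADAMTS4 for display from these same libraries, so its direction here is not independent of that choice. The study also reports qPCR of selected downregulated transcripts in both of its knockout LN229 clones, and its primer list includes ADAMTS4.

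The other hyalectanases, the ADAMTS proteases that cut hyaluronan-binding proteoglycans, had smaller log2 fold changes than ADAMTS4. Of 7 listed, 6 were tested. With all 6 libraries ADAMTS4 was the only one called without the block, while ADAMTS9 and ADAMTS15 also fell with it. ADAMTS9 was also called lower without both libraries numbered 1 (edgeR adjusted p 0.0330). Of all tested genes, 3.33% were called lower without the block and 12.5% with it. ADAMTS1, the most abundant ADAMTS gene at 24.8 CPM per kb in WT, had 140, 112 and 134 CPM in WT and 150, 126 and 140 CPM in PARP3-/- libraries. Its groups overlapped, with a log2 fold change of 0.11 and a 95% interval of -0.16 to 0.37. ADAMTS9 had 61.7, 36.4 and 41.1 CPM in WT and 40.1, 31.5 and 33.0 CPM in PARP3-/- libraries. It was lower in each of the 3 same-numbered pairs although the groups overlapped, and the edgeR log2 fold change was -0.41 (standard error 0.21) at an adjusted p of 0.400, or 0.00353 with the block. ADAMTS15 behaved alike, with a log2 fold change of -0.34 and an edgeR adjusted p of 0.412, or 0.0214 with the block, a call lost in DESeq2 with the block (adjusted p 0.0628) and in edgeR without both libraries numbered 1 (0.0577). For ADAMTS5, or aggrecanase-2, the log2 fold change was 0.26 with a 95% interval of -0.59 to 1.11, so neither direction was set. ADAMTS20 had a log2 fold change of -0.04. The summed level of the hyalectanases was 239, 187 and 211 CPM in WT and 221, 183 and 200 CPM in PARP3-/- libraries, most of it from ADAMTS1, and the groups overlapped.

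ADAMTS3 (ENSG00000156140, chr4:72280969-72569386, minus strand), a procollagen N-propeptidase that also processes the lymphatic growth factor VEGF-C, rose. Its level was 14.8, 17.7 and 17.9 CPM in WT and 22.4, 23.2 and 24.4 CPM in PARP3-/- libraries, without overlap. The log2 fold change was 0.47 (standard error 0.10) with an edgeR adjusted p of 0.0486, or 0.000552 with the block. This call stood close to the threshold: leaving out any one of the 6 libraries gave an adjusted p of 0.0526 to 0.224. The other procollagen N-propeptidases, ADAMTS2 and ADAMTS14, had at most 1 and at most 3 reads in a library.

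ADAMTS12, which cleaves cartilage oligomeric matrix protein, had 10.1, 14.7 and 12.2 CPM in WT and 16.03, 19.1 and 18.8 CPM in PARP3-/- libraries. The groups did not overlap, and the log2 fold change of 0.54 (standard error 0.15) had an edgeR adjusted p of 0.118, or 0.000592 with the block. ADAMTS7, which acts on the same substrate, had a log2 fold change of -0.06 with a 95% interval of -0.51 to 0.39. The fibrillin-associated pair differed: ADAMTS6 had 13.1, 15.9 and 14.1 CPM in WT and 15.9, 20.1 and 18.7 CPM in PARP3-/- libraries. With all 6 libraries ADAMTS6 rose with the block only (log2 fold change 0.34, edgeR adjusted p 0.222, or 0.00436 with the block). Without both libraries numbered 1 its edgeR adjusted p was 0.0154. ADAMTS10 was counted 26, 10 and 12 times in WT and 1, 1 and 0 times in PARP3-/- libraries. It did not pass the filter of the main test, and DESeq2 called it lower with an adjusted p of 0.00618. In edgeR it was called when no filter was used. It passed the filter in 4 of the edgeR fits with a single library left out and was called in 1, with adjusted p of 0.0415 to 0.156. From 48 reads against 2, the WT level was 22.6 times that in PARP3-/- cells, with an exact 95% counting interval of 5.92 to 191.9. ADAMTS16 and ADAMTS17 overlapped between the genotypes, with log2 fold changes of -0.07 and 0.05. ADAMTS13, which cleaves von Willebrand factor, had 69 reads in WT replicate 1 and 21 to 24 in each of the other 5 libraries.

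ADAMTS-like proteins share the matrix-binding parts of ADAMTS proteases but lack the protease domain. ADAMTSL3 (ENSG00000156218, chr15:83654086-84039842, plus strand) rose from a low level, with 30, 44 and 32 reads in WT and 93, 99 and 64 reads in PARP3-/- libraries. Its mean went from 0.884 ± 0.144 to 2.33 ± 0.703 CPM (SD, n = 3), 2.64-fold, with a log2 fold change of 1.39, a standard error of 0.27 and an edgeR adjusted p of 0.0347. The groups did not overlap, and PARP3-/- replicate 1 was the highest library. The adjusted p stayed under the threshold only without PARP3-/- replicate 3 (0.0437) and was 0.0575 to 0.164 without each of the other 5 libraries, the highest without WT replicate 3. Within 2 Mb of ADAMTSL3 the other 44 tested genes had a median log2 fold change of 0.19, and the median of chromosome 15 was 0.15. ADAMTSL4, which binds fibrillin, changed by -0.72 on the log2 scale (standard error 0.35), with an edgeR adjusted p of 0.378, or 0.0282 with the block and 0.259 in DESeq2 with the block, and 20.2% of its exon bases overlap exons of genes on the opposite strand. ADAMTSL5 was at 2.32 to 2.96 CPM in WT and at 2.58 to 3.32 CPM in PARP3-/- libraries, with a log2 fold change of 0.17 and a 95% interval of -0.24 to 0.58.

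Among the ADAM genes, ADAM23 (ENSG00000114948, chr2:206443539-206621130, plus strand) fell. ADAM23 lacks peptidase activity and binds integrins and, in the brain, the secreted protein LGI1. It had 512, 673 and 820 reads in WT and 251, 337 and 335 in PARP3-/- libraries, or 14.0, 16.04 and 20.0 CPM against 8.33, 7.57 and 8.87 CPM. The groups did not overlap. The mean was 2.02-fold lower, from 16.7 ± 3.04 to 8.25 ± 0.654 CPM (SD, n = 3), with a log2 fold change of -1.02, a standard error of 0.15 and an edgeR adjusted p of 0.0127. The adjusted p was 0.0748 without PARP3-/- replicate 2 and 0.0529 without PARP3-/- replicate 3. ADAM22, its relative and likewise an LGI1 receptor without peptidase activity, did not follow it: the level was 24.4, 14.4 and 18.6 CPM in WT and 30.7, 18.6 and 20.2 CPM in PARP3-/- libraries. ADAM22 was higher in each same-numbered pair, with a log2 fold change of 0.27 and an edgeR adjusted p of 0.706, or 0.0159 with the block, a call lost in DESeq2 with the block (adjusted p 0.0727) and in edgeR without both libraries numbered 1 (0.214). ADAM11, of the same group, had a log2 fold change of -0.43, and 93 of its reads lay in WT replicate 1 against 39 to 48 in each other library.

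With all 6 libraries, no active sheddase was called by edgeR without the block, of 11 listed and 8 tested. An unadjusted edgeR p under 0.05 was found for 3, DESeq2 called 1 and the block called 3, all higher. Of all tested genes, DESeq2 called 2.09% higher and edgeR with the block 11.8%, and the share with such an unadjusted p was not counted. Without both libraries numbered 1, an alternative added after seeing the data, edgeR called ADAM10, ADAM15, ADAM17 and ADAM19 higher. The adjusted p values there were 0.0349, 0.0254, 0.0484 and 0.000369. In that setting 8.91% of all tested genes were called higher. ADAM10, which sheds Notch receptors, cadherins and the prion protein, had 220, 230 and 246 CPM in WT and 292, 274 and 278 CPM in PARP3-/- libraries. The groups did not overlap, the log2 fold change was 0.28 (standard error 0.08) and the edgeR adjusted p was 0.126, or 0.00496 with the block and 0.0470 in DESeq2. The median of its chromosome, 15, was 0.15. ADAM19, a sheddase of neuregulins, had 52.1, 37.3 and 39.0 CPM in WT and 73.6, 53.3 and 54.6 CPM in PARP3-/- libraries. Its log2 ratio was 0.50, 0.51 and 0.48 in pairs 1, 2 and 3, and the edgeR adjusted p was 0.212 without and 4.17e-05 with the block. ADAM15 had a log2 fold change of 0.22 and an edgeR adjusted p of 0.303, or 0.00906 with the block.

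ADAM17, which releases TNF and ligands of the EGF receptor, had 149, 114 and 112 CPM in WT and 156, 133 and 124 CPM in PARP3-/- libraries. The groups overlapped, the log2 fold change was 0.14 with a 95% interval of -0.20 to 0.47, and 30.1% of its exon bases overlap IAH1 on the opposite strand. ADAM17 was higher in each same-numbered pair. Its edgeR adjusted p was 0.755 with all libraries, 0.0683 with the block and 0.0484 without both libraries numbered 1. ADAM9, the most abundant ADAM gene per kb, had 272 to 402 CPM in WT and 298 to 418 CPM in PARP3-/- libraries, with a log2 fold change of 0.14 and a 95% interval of -0.29 to 0.58. ADAM12 was 51.3, 23.0 and 32.8 CPM in WT and 53.1, 30.9 and 27.8 CPM in PARP3-/- libraries, so replicate 1 of each genotype stood above the rest, and the interval of its log2 fold change ran from -0.75 to 0.88. ADAM8, ADAM21 and ADAM32 overlapped between the genotypes and were not called with or without the block.

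Among the MMPs, a pair of membrane-type enzymes moved in opposite directions. MMP14 (ENSG00000157227, chr14:22836557-22849027, plus strand), or MT1-MMP, is a collagenase of the cell surface and, with TIMP2, the activator of pro-MMP2. It was counted 5592, 5620 and 5971 times in WT and 6594, 10113 and 7747 times in PARP3-/- libraries, or 153, 134 and 146 CPM against 219, 227 and 205 CPM, without overlap. The mean rose 1.504-fold, from 144 ± 9.69 to 217 ± 11.1 CPM (SD, n = 3), with a log2 fold change of 0.59, a standard error of 0.09 and an edgeR adjusted p of 0.0116. The adjusted p was 0.0752 without WT replicate 3 and 0.0715 without PARP3-/- replicate 2.

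MMP15 (ENSG00000102996, chr16:58025566-58046901, plus strand), or MT2-MMP, has the same domain layout as MMP14. It was counted 813, 1245 and 1404 times in WT and 306, 581 and 499 times in PARP3-/- libraries, or 22.3, 29.7 and 34.2 CPM against 10.2, 13.0 and 13.2 CPM. The groups did not overlap. The mean fell 2.37-fold, from 28.7 ± 6.04 to 12.1 ± 1.72 CPM (SD, n = 3), with a log2 fold change of -1.24, a standard error of 0.18 and an edgeR adjusted p of 0.0117. The adjusted p was 0.0520 without WT replicate 3 and 0.0537 without PARP3-/- replicate 2. The ratio of MMP14 to MMP15 in CPM per kb was 7.55, 4.95 and 4.67 in WT and 23.7, 19.1 and 17.0 in PARP3-/- libraries. MMP14 made up 40.2 to 45.2% of the membrane-type MMP level per kb in WT and 49.9 to 57.2% in PARP3-/- cells, and MMP15 went from 5.32 to 9.12% in WT to 2.11 to 3.13%.

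With all 6 libraries, the remaining membrane-type genes were not called without the block. MMP16 had 403, 236 and 317 CPM in WT and 402, 234 and 259 CPM in PARP3-/- libraries, with a log2 fold change of -0.10 that turned to 0.11 without WT replicate 1. MMP17, anchored by a lipid tail, had 51.1, 38.7 and 45.8 CPM in WT and 52.9, 54.2 and 54.5 CPM in PARP3-/- libraries. With all 6 libraries MMP17 rose with the block only (log2 fold change 0.25, edgeR adjusted p 0.312, or 0.0244 with the block). It was also called in edgeR without both libraries numbered 1. MMP24 had 14, 19 and 12 reads in WT and 6, 0 and 6 in PARP3-/- libraries. Its log2 fold change of -1.76 (standard error 0.70) had an edgeR adjusted p of 0.277, or 0.0612 with the block, and 22.1% of its exon bases overlap MMP24OS and another gene of the opposite strand. MMP24OS itself had 27.8 to 32.0 CPM in every library. Of the secreted MMPs, MMP2 had 435, 290 and 348 CPM in WT and 455, 369 and 364 CPM in PARP3-/- libraries, with a log2 fold change of 0.15 and a 95% interval of -0.25 to 0.54. MMP11, or stromelysin-3, had 9.70, 9.72 and 10.1 CPM in WT and 14.4, 13.9 and 12.3 CPM in PARP3-/- libraries. Its groups did not overlap, and the log2 fold change of 0.46 (standard error 0.10) had an edgeR adjusted p of 0.0532, or 0.00268 with the block and 0.00681 in DESeq2. MMP8 had 14 to 43 reads in WT and 14 to 35 in PARP3-/- libraries.

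TIMP3 (ENSG00000100234, chr22:32801701-32863043, plus strand), the matrix-bound inhibitor, rose from the highest level of any member. It was counted 52944, 49599 and 53340 times in WT and 71111, 92064 and 82911 times in PARP3-/- libraries. The levels of 1450, 1182 and 1301 CPM in WT and 2360, 2067 and 2195 CPM in PARP3-/- libraries did not overlap. The mean went from 1311 ± 134 to 2207 ± 147 CPM (SD, n = 3), 1.68-fold, with a log2 fold change of 0.75, a standard error of 0.12 and an edgeR adjusted p of 0.0168. The adjusted p stayed under 0.05 without either library numbered 1 and lay between 0.0624 and 0.0972 without WT replicates 2 or 3 or PARP3-/- replicates 2 or 3.

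TIMP2, which binds MMP14 at the cell surface, had 280, 213 and 213 CPM in WT and 361, 316 and 297 CPM in PARP3-/- libraries. The groups did not overlap, the log2 fold change was 0.46 (standard error 0.14), and the edgeR adjusted p was 0.140 without and 0.000151 with the block, and 0.0414 in DESeq2. Without WT replicate 1 the edgeR adjusted p was 0.0280. TIMP1 had 222, 171 and 190 CPM in WT and 187, 179 and 168 CPM in PARP3-/- libraries, with a log2 fold change of -0.13 and a 95% interval of -0.39 to 0.14. TIMP4 had at most 1 read in a library. The ratio of TIMP3 to TIMP1 in CPM per kb was 1.09, 1.16 and 1.15 in WT and 2.11, 1.93 and 2.19 in PARP3-/- libraries, and TIMP3 went from 46.3 to 48.1% of the TIMP level in WT to 58.4 to 61.4% in PARP3-/- cells. The ratio of MMP14 to TIMP2 overlapped between the genotypes, at 0.539, 0.621 and 0.676 in WT and 0.598, 0.709 and 0.682 in PARP3-/- libraries.

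**Figure D3:**
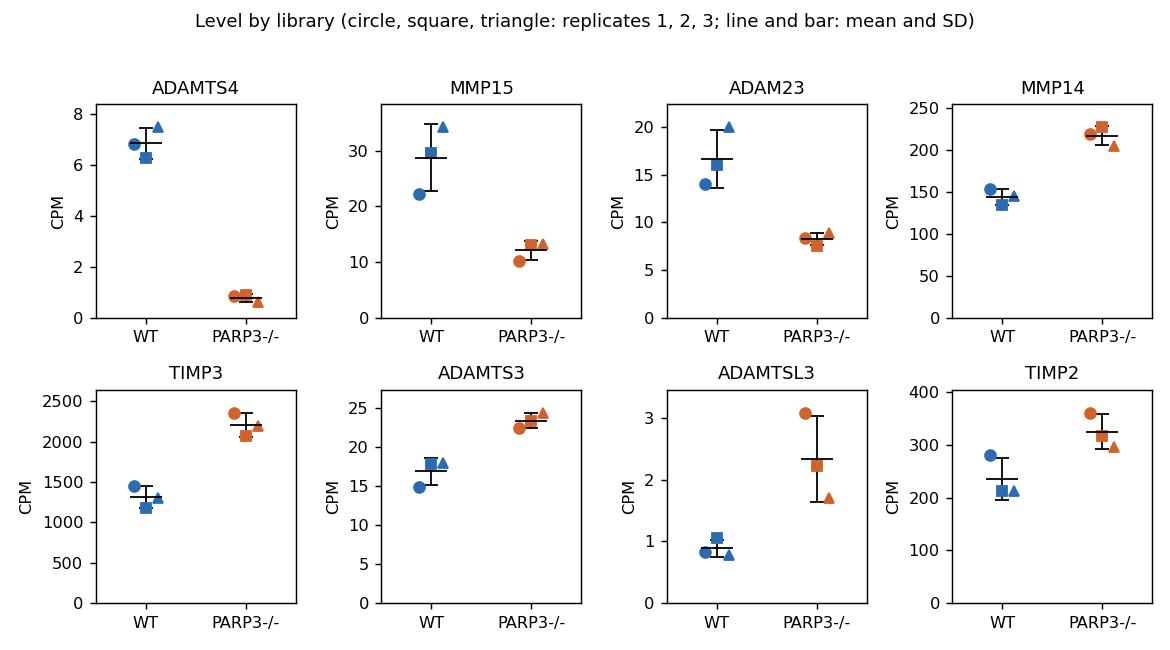
Level in CPM of the 7 members called in edgeR and of TIMP2, called with the replicate block but not without it, in each WT and PARP3-/- library. Points are libraries, with the mean as a line and the SD as a bar, and every axis starts at 0. In all 8 panels the libraries of one genotype lie wholly above those of the other. The 8 were chosen from calls in the same libraries, so this separation is not independent of that choice. Of all tested genes, 12.0% lay wholly below WT in PARP3-/- libraries and 10.8% wholly above.

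**Figure D4:**
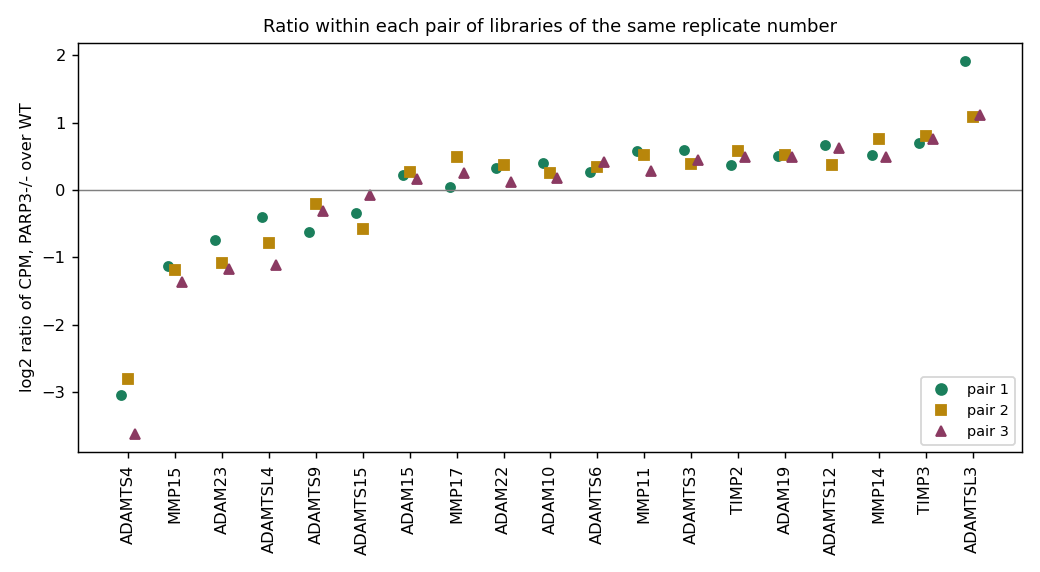
Log2 ratio of CPM, PARP3-/- over WT, within each pair of libraries of the same replicate number, for the 19 members called with the replicate block. The 3 pairs have the same sign in each of the 19 members, from ADAMTS4 at -3.62 to -2.80 to ADAMTSL3 at 1.08 to 1.91. The block fit chose these members from the same pairs, so the shared sign largely follows from that choice. The pairs also share a sign in ADAM9, ADAM17 and ADAMTS1, not called with the block. The share over all tested genes was not counted.

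Promoter sequence was read from RefSeq (GRCh38.p14) for MMP14 and TIMP3, which rose, and MMP15 and ADAM23, which fell, to set members of one family that moved in opposite directions side by side. Capitals mark GGGCGG on either strand, a GC box of the kind bound by SP1, and the stretch is printed up to the gene's start in the deposited table.
MMP14, chr14:22836335-22836556, plus strand: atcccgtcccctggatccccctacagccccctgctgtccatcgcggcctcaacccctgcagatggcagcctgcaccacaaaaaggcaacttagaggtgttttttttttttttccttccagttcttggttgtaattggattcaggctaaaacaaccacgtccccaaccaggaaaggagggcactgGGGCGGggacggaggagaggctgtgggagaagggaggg
MMP15, chr16:58025504-58025565, plus strand: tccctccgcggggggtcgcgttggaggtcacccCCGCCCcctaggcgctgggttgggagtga
TIMP3, chr22:32801455-32801700, plus strand: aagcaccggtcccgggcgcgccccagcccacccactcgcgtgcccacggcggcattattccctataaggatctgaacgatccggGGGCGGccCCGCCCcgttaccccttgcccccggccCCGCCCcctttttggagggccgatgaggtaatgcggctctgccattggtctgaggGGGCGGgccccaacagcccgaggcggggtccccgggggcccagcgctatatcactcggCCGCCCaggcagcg
ADAM23, chr2:206443282-206443531, plus strand: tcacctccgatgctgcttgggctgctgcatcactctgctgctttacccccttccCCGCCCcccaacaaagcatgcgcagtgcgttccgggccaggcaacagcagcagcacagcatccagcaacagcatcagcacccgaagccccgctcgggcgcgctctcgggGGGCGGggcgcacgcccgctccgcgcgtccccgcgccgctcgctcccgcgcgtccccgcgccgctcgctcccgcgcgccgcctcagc

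In the whole 250 bases before the RefSeq start, GGGCGG was found once for MMP14, 5 times each for MMP15 and TIMP3 and 2 times for ADAM23. MMP14 held 7 CpG sites with a GC content of 56.8%, against 31 and 74.8% for MMP15, 26 and 72.4% for TIMP3 and 33 and 73.6% for ADAM23. The RefSeq table held a promoter for 40 of the 65 members, 27 tested and 13 not tested. GGGCGG occurred in 75.0% of them, 85.2% of the tested and 53.8% of the untested, and in 42.6% of all 35114 promoters. TATAAA, searched on both strands, occurred in 3.7% of the tested and 38.5% of the untested members, and in 10.7% of all promoters. In counts, GGGCGG was in 23 of 27 tested and 7 of 13 untested members, and TATAAA in 1 of 27 and 5 of 13. The median GC content was 70.8% in members, 73.2% in the tested and 62.8% in the untested, against 58.0% in all promoters. Whether the motif shares differ beyond base composition was not tested. TGANTCA, the AP-1 motif and its own reverse complement, occurred in 7.5% of members and 6.57% of all promoters.

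The partners of these proteases were taken from 7 lists: plasminogen activation, inhibitors and activators of metalloproteinases, maturation partners of ADAM10 and ADAM17, substrates shed by ADAM10 and ADAM17, matrix substrates, other secreted metalloproteinases, and transcription factors that act on MMP promoters. Of the 138 genes 116 were tested, 7 fell and 5 rose in edgeR, where 3.33% and 1.36% of all tested genes were called. With the block 27 fell and 34 rose, where 12.5% and 11.8% of all tested genes were called. Their median log2 fold change was 0.01, and the medians of single lists ran from -0.29 for other secreted metalloproteinases to 0.34 for plasminogen activation. Of the 10 tested plasminogen activation genes, 0 fell and 1 rose without the block, and 0 fell and 7 rose with it.

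Among matrix substrates, 3 fell and 2 rose of 22 tested, beside 3.33% and 1.36% of all tested genes. ACAN, or aggrecan, a substrate of ADAMTS4, had 194, 122 and 181 reads in WT and was at 0 in the 3 PARP3-/- libraries. Against a floor of 3 reads per library, ACAN was at least 51.3-fold lower. The study also selected ACAN as a gene repressed in its knockout cells, so its direction here is not independent of that choice. DCN, or decorin, fell from 11.2 ± 1.32 to 5.40 ± 0.674 CPM (SD, n = 3; edgeR adjusted p 0.00919), with an adjusted p of 0.0551 to 0.0574 without WT replicate 3, PARP3-/- replicate 2 or PARP3-/- replicate 3. The proteoglycan VCAN, or versican, another ADAMTS4 substrate, had a log2 fold change of -0.24 with an edgeR adjusted p of 0.491, or 0.00721 with the block. FBN1, COL1A2, COL4A1 and VCAN are named after their values were seen. FBN1, or fibrillin-1, had a log2 fold change of -0.73, COL1A2 of 1.31 and COL4A1 of 0.50, with edgeR adjusted p of 0.00455, 0.0465 and 0.0263. FBN1 was called without each library in turn, while COL1A2 and COL4A1 each kept the call only without WT replicate 1, with adjusted p up to 0.200 and 0.143.

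Of the regulators, SPOCK1, or testican-1, a matrix proteoglycan with a protease-inhibiting domain, fell from 25.4 ± 0.937 to 9.88 ± 0.865 CPM (SD, n = 3; log2 fold change -1.36, edgeR adjusted p 0.000599) and was called without each library in turn. SERPINB2, an inhibitor of the urokinase-type plasminogen activator, rose from 0.495 ± 0.0369 to 1.54 ± 0.339 CPM (log2 fold change 1.62, edgeR adjusted p 0.0103, or 0.0636 without WT replicate 3). THBS1, or thrombospondin-1, named after its values were seen, had 1332, 3047 and 2054 CPM in WT and 3240, 5713 and 5032 CPM in PARP3-/- libraries, with an edgeR adjusted p of 0.141, or 5.45e-06 with the block. The membrane-anchored inhibitor RECK, likewise named afterwards, had a log2 fold change of -0.04. Of the 10 maturation partners of ADAM10 and ADAM17, TSPAN33, a tetraspanin that escorts ADAM10, fell (log2 fold change -0.99, edgeR adjusted p 0.00686), and RHBDF2, or iRhom2, which carries ADAM17 to the surface, rose (0.55, edgeR adjusted p 0.0306, and up to 0.158 without PARP3-/- replicate 3). RHBDF2 kept its call only without WT replicate 1, and TSPAN33 and RHBDF2 were named after their values were seen.

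Of 32 tested substrates shed by ADAM10 and ADAM17, CXCL16, a membrane-bound chemokine, was the only one called without the block. Of all tested genes, 3.33% were called lower and 1.36% higher without it. CXCL16 had 87, 53 and 58 reads in WT and 17, 10 and 7 in PARP3-/- libraries. Its log2 fold change of -2.43 (standard error 0.45) had an edgeR adjusted p of 0.0303, which was 0.0972 without WT replicate 3, 0.149 without PARP3-/- replicate 2 and 0.129 without PARP3-/- replicate 3. With the block 9 of these substrates fell and 8 rose, beside the 12.5% and 11.8% of all tested genes. Among other secreted metalloproteinases CPXM2, a carboxypeptidase-like protein without known activity, was counted 452, 245 and 365 times in WT and 0, 1 and 0 times in PARP3-/- libraries. The edgeR adjusted p was 0.000390, and CPXM2 was called without each library in turn. CPXM2 is in the qPCR primer list of the study, so its direction here may not be independent of that choice. Of the 19 transcription factors, 1 was called without the block, beside 3.33% and 1.36% of all tested genes lower and higher. With the block 4 fell and 6 rose, beside 12.5% and 11.8% of all tested genes. The 1 called without the block was SNAI2, named after its values were seen. SNAI2 rose from 7.69 ± 1.43 to 14.98 ± 1.64 CPM (SD, n = 3, edgeR adjusted p 0.0211), with an adjusted p of 0.0516 to 0.0921 without WT replicate 3 or any one of the PARP3-/- libraries.

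Replicate 1 stood apart from replicates 2 and 3 in both genotypes. It was the highest library of both genotypes in 20 of the 40 tested members (50%), against 32.5% of all tested genes, and the lowest of both in 10 (25.0%, against 32.3%). The 20 include ADAM12, ADAM17, ADAM19, ADAMTS9, MMP2, MMP16 and all 3 tested TIMP genes. With both libraries numbered 1 left out, an alternative added after seeing the data, 5 members were called lower and 13 higher in edgeR, where 10.1% and 8.91% of all tested genes were called. The 7 members called with all libraries were among these 18. What sets replicate 1 apart is not given in the sources used here, and its part in these results was not tested beyond leaving it out and the block.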

How the data were processed

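RNA of 3 WT and 3 PARP3-/- LN229 libraries was sequenced by the study with a stranded kit after ribosomal RNA removal, although the labels name polyA RNA. Per the labels and methods, the authors trimmed single 50-base reads with cutadapt 1.10, kept those of at least 40 bases, removed ribosomal reads with Bowtie2 2.2.8, aligned to hg38 with STAR 2.5.3a and counted with HTSeq 0.6.1p1 in union mode over Ensembl 91. The strand setting of the counting is not given in the sources used here. The deposited values used are raw counts per gene. Union mode drops reads that overlap several genes. The 12 columns of normalized values and the 3 columns of the authors' own comparison (log2 fold change, p-value and adjusted p-value) were not used.

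All genes were tested with edgeR 4.0.16 (R 4.3.3) by glmQLFit and glmQLFTest, TMM scaling and filterByExpr (minimum count 10), with Benjamini-Hochberg adjustment over 17144 genes and a threshold of 0.05. Direction is PARP3-/- minus WT, and standard errors are the log2 fold change over the root of F. Intervals of 95% use the same standard errors. CPM uses the TMM-scaled library size. Lengths are MANE Select transcripts of GENCODE 44, found for all 65 members. DESeq2 1.42.0, RLE scaling, no filter, a mean count of at least 50, a replicate block, a stricter threshold and each library left out were alternatives. Leaving out both libraries numbered 1, and DESeq2 with the block, were added after seeing the data. The block takes libraries of the same replicate number as pairs. The correlation of their deviations from the genotype mean, on log2(CPM + 0.5), was 0.788, 0.680 and 0.383 for pairs 1, 2 and 3. Across numbers it was 0.575 for WT replicate 2 with PARP3-/- replicate 3, 0.367 for WT replicate 3 with PARP3-/- replicate 2, and -0.765 to -0.454 for pairs holding 1 library numbered 1, so replicate 1 is set apart more clearly than replicates 2 and 3 from each other. The edgeR script was tested on simulated data.

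The members and all lists were chosen with earlier results of these data known. Named members were those called in the main test, those called with the block or DESeq2 beyond a log2 fold change of 1, the 3 highest per kb of each class, all TIMP genes, ADAM10 and ADAM17. Named partners were those called beyond a log2 fold change of 1, at most 2 per list. The other members in the text were named after their values were seen. One marker of other cell types, and the summed level of that list, are not reported here. Depth was 29692065 to 46010369 counts per library, and 3 counts correspond to 0.0652 to 0.101 CPM of these totals, without TMM scaling. Counting intervals and floors cover counting error only. The family genes ADAM2, ADAM7, ADAM30, ADAMTS18, ADAMTSL6, MMP20, MMP26 and MMP27 were not analysed here, nor were 11 genes of other biotypes with matching names.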

Additional observations from a re-analysis of the deposited data

How the results depend on the processing

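Depth limits the 25 untested members, for which only large changes could be seen. Of the 7 called members, 6 remained called with RLE scaling, without a filter and with a mean count of at least 50, ADAMTS3 being lost in each. All 7 remained called with the replicate block, in DESeq2, in DESeq2 with the block and without both libraries numbered 1. With single libraries left out, 1 to 5 of the 7 remained, ADAMTS4 always and the fewest without PARP3-/- replicate 2. The replicate block changed no call of a member or partner named in the report other than those given there.

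Counts of calls lower and higher were 3 and 4 for members, 7 and 5 for partners and 571 and 234 for all tested genes. With the replicate block, the pairing taken from the replicate numbers, they were 6 and 13, 27 and 34, and 2143 and 2023. Without both libraries numbered 1 they were 5 and 13, 20 and 32, and 1739 and 1536. In DESeq2 with the block they were 5 and 12, 22 and 27, and 1342 and 1240. In DESeq2, members called higher were 8, partners 12 and 11, and all genes 871 and 475. With a mean count of at least 50, partners called higher were 3 and all genes called lower 331. At the stricter threshold they were 1 and 0, 2 and 0, and 76 and 6. Leaving out single libraries gave 1 to 4 and 0 to 3 members, 5 to 11 and 0 to 7 partners, and 281 to 606 and 49 to 259 of all genes. Leaving out a library tests fewer samples. The cause of the other changes was not tested.

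Of the log2 fold changes of named members under the alternatives, 212 kept direction and side of the threshold, 18 came past it, 24 fell short of it and 5 reversed. ADAMTS17, 0.05 with all libraries, was 0.26 without WT replicate 1, -0.08 without WT replicate 2, -0.01 without WT replicate 3 and -0.14 without PARP3-/- replicate 1. MMP16, -0.10 with all libraries, ranged from -0.37 without PARP3-/- replicate 1 to 0.11 without WT replicate 1, and was 0.05 without PARP3-/- replicate 2. No scaling moved the median of all tested genes by 0.1 on the log2 scale.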
